A study of Rattus norvegicus with 2 samples.

Results

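The 36 genes described here serve red cell formation in the rat. They comprise the heme synthesis enzymes and mitochondrial carriers, beta globin and its chaperone, red cell enzymes, membrane and skeleton proteins, transporters and blood group antigens, erythroid transcription factors with the erythropoietin receptor, and the mitochondrial clearance factor Bnip3l. They were picked by function, and their probes were found on the array through the RefSeq accession of each probe. Of the 36 genes, 22 were measured by 25 probes, out of 8898 genes with a symbol and 41009 probes in all. The other 14 genes (Urod, Ppox, Fech, Ahsp, Car1, Blvrb, Ank1, Epb41, Epb42, Dmtn, Mpp1, Kel, Klf1 and Tal1) were not matched to a probe and were not analysed here.

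LO is the essential oil of lavender, Lavandula angustifolia. Male rats aged 7 weeks (n = 6 in each group) received LO into the stomach at 5 mg/kg in 10% ethanol, or 0 mg/kg (the 10% ethanol alone, control), on each of 13 days, and whole blood was taken on day 14. Total RNA of the 6 rats was pooled in each group before labeling, and both pools were hybridized together on 2 two-color Agilent arrays. On array 1 the LO pool carried Cy5 (red) and the control pool Cy3 (green), and on array 2 the dyes were exchanged. This dye swap repeats the measurement of 1 pool against 1 pool, so it is 1 replicate. It holds no spread between rats, and no test between LO and control was possible. The strain is given as Fischer F334 in some of the sources and as Wistar in another, and the blood as drawn from the heart alone or from the heart and the portal vein.

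In a developing red cell, heme is assembled from glycine and succinyl-CoA in a chain of steps that begins and ends in the mitochondrion, with iron inserted last. Globin chains take up the heme while a spectrin and actin skeleton is laid under the membrane, tied to the anion exchanger band 3. GATA1 and NF-E2 drive this program downstream of the erythropoietin receptor. Reticulocytes, the youngest circulating red cells, keep part of this RNA after the nucleus is lost, and it therefore makes up much of the RNA of whole blood. In pooled blood, fewer reticulocytes and less RNA per cell cannot be told apart.

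Of the 22 measured genes, 21 (24 probes) were rated well above background in all 4 channels, meaning both pools on both arrays. Among the defining red cell genes, Alas2, Hbb, Slc4a1, Gypc and Rhag were all in this set, and Ahsp and Epb42 were among the unmatched genes. Cpox was above background only where a pool was labeled with Cy5. On the whole arrays, 15371 probes reached this standard. The software rated 44.8% to 50.3% of features as well above background, depending on the channel, and the median processed signal of a channel was 53.6 to 62.8, against 9.76 to 15.8 for the 153 negative control spots of an array. No feature was saturated.

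The beta globin promoter is shown as the landmark of the program, being the switch of the globin measured here. The 250 bases before the start of Hbb, on the minus strand at chr1:167663722-167663971 of RefSeq GRCr8, are printed 5′ to 3′, with capitals on the CACC-type box CCNCNCCC and on the CCAAT box in either strand.
Hbb: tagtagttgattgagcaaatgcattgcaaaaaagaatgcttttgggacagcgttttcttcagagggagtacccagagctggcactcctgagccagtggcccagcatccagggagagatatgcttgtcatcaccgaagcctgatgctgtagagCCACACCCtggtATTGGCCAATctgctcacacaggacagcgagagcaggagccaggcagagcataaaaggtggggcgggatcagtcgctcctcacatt
The CACC-type box began 98 bases before the start. A CCAAT box lay at 81 bases and its reverse complement at 86 bases, side by side. A promoter window was available for 25 of the 36 genes. Among these, 18 held CCNCNCCC, against 42.8% of all 33469 promoter windows of the same length, and 11 held CCAAT, against 34.0%. The GATA-type letters AGATAA, searched on both strands as were the others, were found in 5 windows (Add2, Alas2, Epor, Fech and Sptb), against 10.3% of all windows (the RefSeq start of Alas2 used here may be an internal one), and TGATAA in 3 (Add2, Klf1 and Rhag), against 7.97%. These matches only describe the letters of each window.

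The ratio of LO to control was separated into an LO part and a dye part. The LO part is the log2 ratio of LO to control averaged over both arrays, and is above 0 where the LO pool was higher. The dye part is the log2 ratio of array 1 minus that of array 2, divided by 2, and is above 0 where the Cy5 channel was brighter whichever pool it held. A fold given for both arrays together is the LO part on the linear scale.

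No red cell or heme synthesis gene was called changed between LO and control in both dye orientations. A probe was called when the error-model p of the Feature Extraction software, at the threshold of 0.01 named in the study's methods, passed in each dye orientation with the same pool higher each time. The methods do not say whether the threshold must hold on each array, and here it had to. By this rule 0 of 25 member probes were called towards the LO or the control pool, where 0.0219% of all probes were called. The count was 0 also at a p under 0.05, where 0.0439% of all probes passed. This p is the software's own error model of a spot and carries no spread between rats. None of the 24 probes above background had an LO part beyond 1.5-fold (0.124% of all such probes). The LO parts ran from -0.14 (0.907-fold, Gypc) to 0.040 (1.03-fold, Alad), with a median of -0.035 (0.976-fold) and an SD of 0.052 between probes. Over all 15371 probes the median was -0.0026 and the SD 0.124. Of the 24 probes, 18 were below 0 and 6 above, and 51.3% of all probes were below 0. On both arrays alike, 5 member probes were lower in the LO pool (Gata1, Gypc, Nfe2 and both probes of Tmod1) and 0 were higher, where 12.7% of all probes were lower and 11.7% were higher. Without dye correction, in background-subtracted signals centred on the median, 0 of the 24 probes were lower on both arrays. That setting cannot decide whether the 5 probes hold, because the dye moved the arrays apart. For all probes above background, the median log2 ratio of LO to control was then 0.261 (array 1) and -0.400 (array 2). A small LO part could hardly keep its sign there. Normexp and loess gave 6 probes (Gypc, Uros, Sptb, Gata1, Nfe2 and a probe of Tmod1). The matching share of all probes is not given for either setting.

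**Figure D1:**
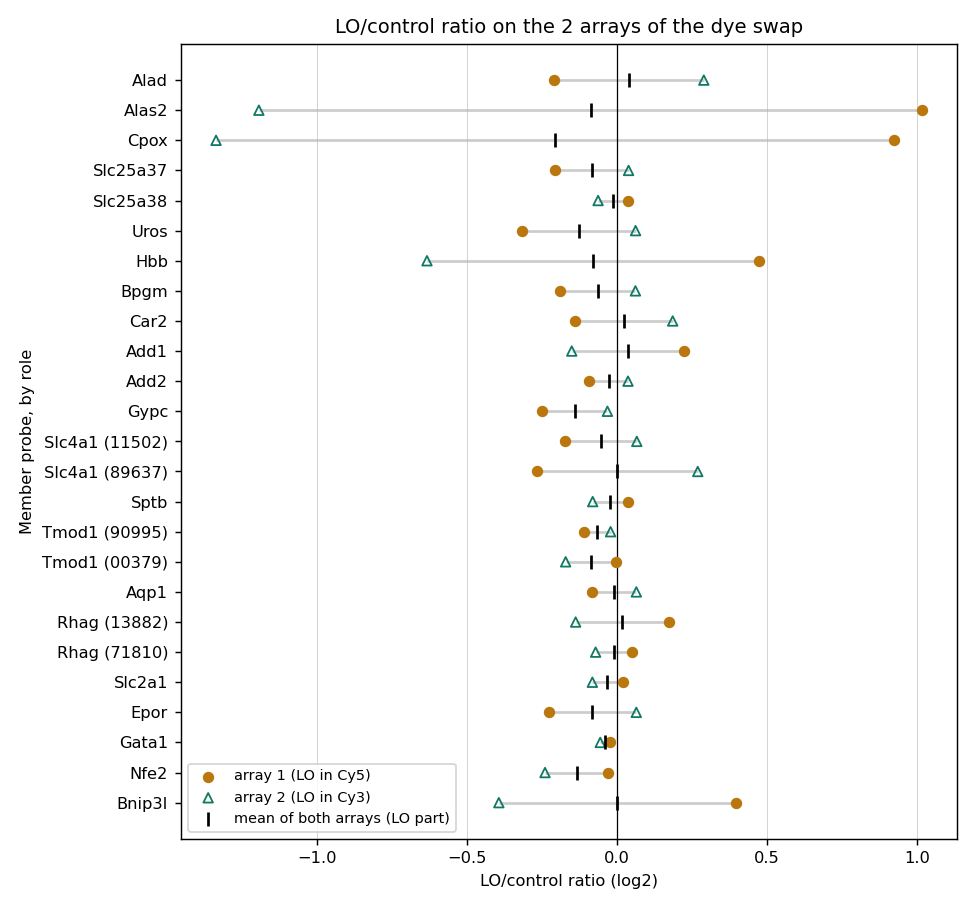
LO/control ratio (log2, x axis) of the 25 member probes (y axis, grouped by role, with the last 5 digits of the probe name where a gene had several) on array 1 (filled circles, LO in Cy5) and array 2 (open triangles, LO in Cy3); the black tick is their mean, the LO part. Alas2, Hbb and Bnip3l lie far to the right on array 1 and far to the left on array 2, as does Cpox, whose Cy3 channel was not above background on either array, while all ticks of probes above background in 4 channels lie between -0.14 and 0.040.

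By the stated labels, what moved most in these genes followed the dye. The LO/control ratios of array 1 and array 2 ran against each other over the 24 probes (Pearson r = -0.94, Spearman rho = -0.83, given as a description over probes of the same 2 arrays). Over all 15371 probes above background, r was -0.70 and rho -0.68. Over all 41009 probes, with the features whose log ratio the software had set to 0, r was -0.67. The dye assignment of each array is stated by the study, and the direction of the ratios was therefore kept. The ratios of these 2 arrays alone cannot tell a dye effect from dyes not exchanged as stated, and this was not tested. The median size of the dye part was 0.122 in the members and 0.150 over all probes above background. A single member probe, that of Alas2, was called towards the same dye on both arrays, where 2.64% of all probes were, and the same probe alone had a dye part beyond 1.5-fold, where 6.49% of all probes did. At a p under 0.05, Hbb and Cpox joined it, making 3 probes, where 6.58% of all probes were called. The call of Cpox rests on a channel that was not above background.

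Heme synthesis was measured by 4 enzymes and both mitochondrial carriers. Alas2, the first and rate-limiting enzyme of heme synthesis in red cell precursors, gave processed signals of 941855 (LO) and 465183 (control) on array 1, and of 360662 and 824508 on array 2. Each pool was thus bright in Cy5 and dimmer in Cy3, and the ranges of the pools overlapped. The pool ratio came to 2.02 on the first array and 0.437 on the other, with Feature Extraction p-values of 5.69e-06 and 2.55e-07. Read alone, either array would call Alas2 changed, in opposite directions. The mean of both arrays was 0.941-fold (LO part -0.088), and the dye part was 1.11, larger in size than that of 99.7% of all probes above background.

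Alad, which joins aminolevulinate into porphobilinogen, gave 5060 and 5857 (LO and control) on array 1 and 6283 and 5139 on array 2. It was lower in the LO pool on array 1 (0.864-fold) and higher on array 2 (1.22-fold), with a mean of 1.03-fold. Slc25a37, mitoferrin 1, which brings iron into the mitochondrion, gave 997 and 1150 on array 1 and 1148 and 1117 on array 2, and the mean was 0.944-fold. Slc25a38, the mitochondrial glycine carrier, gave 6934 and 6750 on array 1 and 6628 and 6921 on array 2, a mean of 0.992-fold. For these 3 genes the sign of the ratio turned with the dye, and their Feature Extraction p-values were between 0.159 and 0.849.

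Uros, which closes the porphyrin ring, was the dimmest probe of the pathway above background, with signals between 112 and 162 and a mean of 0.916-fold. Its LO part of -0.13 was within the SD of 0.179 found among the 1000 probes nearest to it in mean signal. Cpox, which oxidises coproporphyrinogen in the mitochondrion, gave 101 in the LO pool and 53.1 in the control pool on array 1, and 42.6 and 108 on array 2. Only the higher value of each array, that of the Cy5 channel, was well above background. Each pool was therefore measured above background once, and no fold or dye part of Cpox is read here. The spot signals before background and dye correction ran the other way, with 108 and 136 (LO and control) on array 1 and 143 and 106 on array 2, brighter in Cy3 each time.

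Hbb, the beta chain of hemoglobin, behaved as Alas2 did, to a lesser extent. Its signals were 704350 (LO) and 507231 (control) on array 1, and 437038 and 677579 on array 2. The ratios of 1.39 and 0.645, with Feature Extraction p-values of 0.0231 and 0.00285, left 0.946-fold as the mean and a dye part of 0.55. Hbb belongs to a family of nearly identical beta globin genes, and its probe may also bind their RNA. The signals of the LO pool, 437038 to 704350, enclosed those of the control pool.

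**Figure D2:**
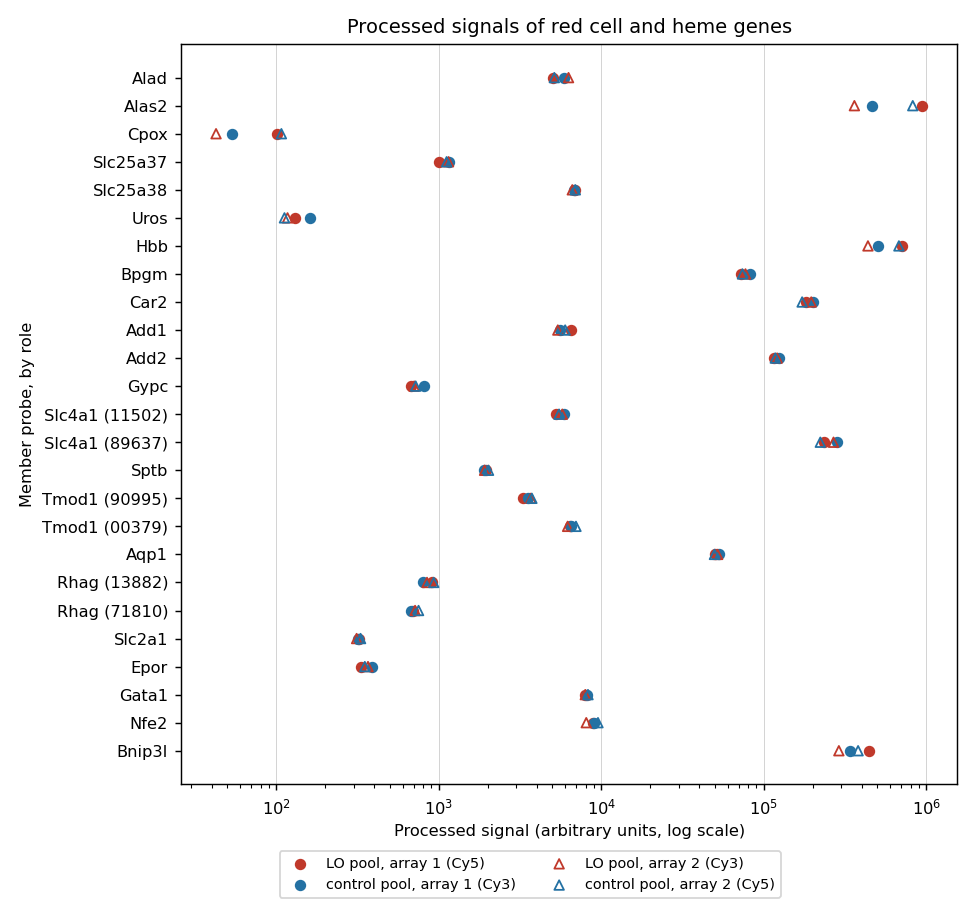
Processed signal (arbitrary units, log scale, x axis) of each member probe (y axis, grouped by role) in the LO pool (red) and the control pool (blue), on array 1 (filled circles) and array 2 (open triangles). In Alas2 and Hbb the filled red and open blue points, both Cy5, stand together above the filled blue and open red points, both Cy3, whereas in most other probes the 4 points nearly coincide. Probes differ in binding, so positions of different probes are not levels to be set against each other.

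The enzymes of red cell metabolism differed little between the pools. Bpgm, which makes the bisphosphoglycerate that loosens oxygen from hemoglobin, gave 72109 and 82155 (LO and control) on array 1 and 77092 and 73842 on array 2, a mean of 0.957-fold. Car2, a cytosolic carbonic anhydrase, gave 181454 and 200050 on array 1 and 195727 and 172018 on array 2, a mean of 1.02-fold. Both were lower in the LO pool on array 1 and higher on array 2, the reverse of Hbb, with dye parts of -0.13 and -0.16.

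Among the membrane and skeleton genes, 6 genes (8 probes) were above background, with LO parts from -0.14 to 0.037. Slc4a1, the band 3 anion exchanger, was measured by a bright and a dim probe. The bright probe gave 233519 and 281094 (LO and control) on array 1 and 268315 and 222546 on array 2. The ratios of 0.831 and 1.21 cancelled in the mean. The dim probe gave 5233 and 5904 on array 1 and 5753 and 5493 on array 2, a mean of 0.963-fold, so the LO parts of the probes, 0.0012 and -0.054, differed by little more than the SD of 0.047 among probes of like signal to the dim one. Both probes had negative dye parts, -0.27 and -0.12.

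The adducins, which cap actin filaments and tie them to spectrin, were Add1 (alpha) and Add2 (beta). Add1 gave 6524 and 5588 (LO and control) on array 1 and 5399 and 5991 on array 2, a mean of 1.03-fold. Add2 gave 115658 and 123194 on array 1 and 120683 and 117596 on array 2, a mean of 0.982-fold. Their dye parts lay on opposite sides of 0, at 0.19 for Add1 and -0.064 for Add2. Sptb, erythrocyte beta spectrin, gave 1942 and 1892 on array 1 and 1913 and 2023 on array 2, and its mean was 0.985-fold.

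Tmod1, which caps the slow-growing end of actin filaments, was lower in the LO pool on both arrays by both of its probes, though by small amounts. The brighter probe gave 6459 and 6466 (LO and control) on array 1 and 6204 and 6982 on array 2, with a mean of 0.942-fold, and both LO signals lay below both control signals. The other gave 3274 and 3534 on array 1 and 3686 and 3739 on array 2, with a mean of 0.956-fold. On array 1 the ratio of the brighter probe was 0.999, and the Feature Extraction p-values of both probes were between 0.405 and 0.994. The LO parts were -0.086 and -0.065, each less than 2 times the SD among probes of like signal.

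Gypc, glycophorin C, which anchors the skeleton to the membrane, is singled out for its values. It gave 679 (LO) and 806 (control) on array 1 and 705 and 721 on array 2. Both LO signals were below both control signals. The ratios were 0.841 and 0.979, with Feature Extraction p-values of 0.233 and 0.881, and the mean was 0.907-fold. This LO part of -0.14 was the largest in size among the 24 probes, and 79.9% of all probes above background had a smaller one.

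The transporters and antigens had LO parts between -0.031 and 0.018. Aqp1, the water channel of the red cell, was printed on 10 spots, 9 of which were free of quality flags, and these gave mean signals of 50096 and 53067 (LO and control) on array 1 and 51965 and 49666 on array 2. The LO part was -0.0090 ± 0.013 (SD over 9 spots), with single spots between -0.032 and 0.0096. The dye part was -0.074 ± 0.013 and below 0 in 9 of 9 spots. For this gene the dye part was larger than the spread between spots and the LO part was not.

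Slc2a1, the glucose transporter GLUT1, was also printed on 10 spots, at a much lower signal. Its mean signals were 322 and 319 (LO and control) on array 1 and 312 and 330 on array 2. The LO part was -0.031 ± 0.084 (SD over 10 spots) and the dye part 0.050 ± 0.095, neither larger than the spread between spots. Over all 105 repeated probes above background, the median SD between spots was 0.053 for the LO part and 0.055 for the dye part. Spots of a probe share the same labeled RNA, so this SD is technical only.

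**Figure D3:**
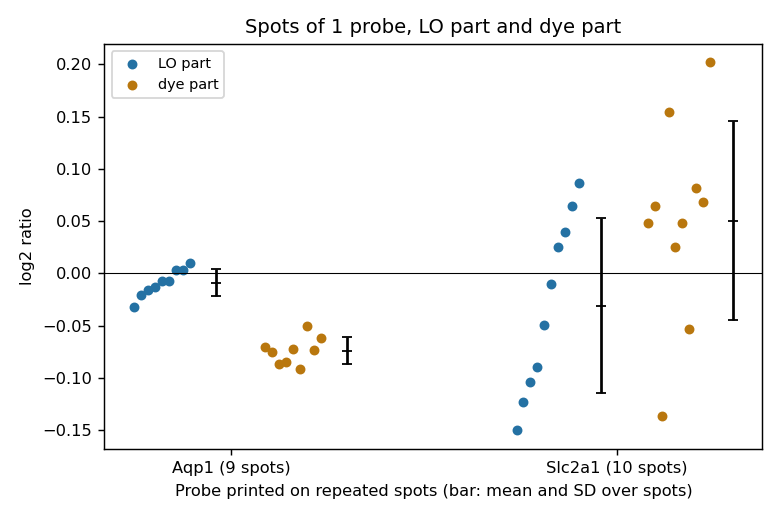
LO part (blue) and dye part (brown), both log2 on the y axis, of the single spots of Aqp1 (9 spots) and Slc2a1 (10 spots), drawn in order of LO part, with the mean and SD over spots as a black bar. The Aqp1 spots lie within -0.032 to 0.0096 for the LO part, and all 9 dye parts are below 0, whereas the spots of Slc2a1 scatter from -0.15 to 0.087 for the LO part.

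Rhag, the Rh-associated glycoprotein, had a pair of probes. The first gave 905 and 803 (LO and control) on array 1 and 846 and 931 on array 2, a mean of 1.01-fold, and the other gave 698 and 674 on array 1 and 715 and 751 on array 2, a mean of 0.993-fold. Their LO parts, 0.018 and -0.010, were well within the SD of probes of like signal, 0.064 and 0.071.

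The transcription factors and the receptor all had LO parts below 0, under the alternative background corrections too. Those corrections do not set this role apart. With background-subtracted signals centred on the median all 24 member probes were below 0, and with normexp and loess 20 of 24 were. The median LO part of all probes above background was -0.074 in the former setting and 0.0006 in the latter. The share of all probes below 0 is not given for either. Gata1, the master erythroid factor, gave 7989 and 8111 (LO and control) on array 1 and 7969 and 8279 on array 2. Both LO signals were below both control signals, with a mean of 0.974-fold. The LO part of -0.039 was below the SD of 0.044 among probes of like signal.

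Nfe2, a subunit of NF-E2, gave 8867 and 9048 on array 1 and 8079 and 9536 on array 2. Here too both LO signals lay below both control signals. The ratio was close to even on array 1 (0.980) and lower on array 2 (0.847), with Feature Extraction p-values of 0.886 and 0.244 and a mean of 0.911-fold. Against probes of like signal, whose SD was 0.044, the LO part of -0.13 was the farthest from 0 of any member, at 3.04 SD, a distance exceeded by 0.664% of all probes. Beyond 2 SD lay 3 of the 24 member probes (Nfe2, Alas2 at 2.07 SD and Gypc at 2.02 SD), where 4.22% of all probes did. All 3 were lower in the LO pool on average. Alas2 was not lower on both arrays, and few probes are as bright, so that its 1000 neighbors reach much dimmer ones. Among the 47 brightest probes the SD of the LO part was 0.050 around a median of -0.035, and against this SD the -0.088 of Alas2 lay within 2 SD.

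Epor, the erythropoietin receptor, gave 333 and 390 (LO and control) on array 1 and 367 and 351 on array 2. The ratio turned from 0.854 to 1.05, and the mean was 0.945-fold. Its LO part of -0.081 was smaller in size than the SD of 0.101 at its signal.

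Bnip3l (NIX), needed for the loss of mitochondria in reticulocytes, gave 444814 and 337700 (LO and control) on array 1 and 289456 and 380117 on array 2. Its ratios of 1.32 and 0.761, with Feature Extraction p-values of 0.0551 and 0.0578, mirrored each other. The LO part was 0.0022 and the dye part 0.40.

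Among the 24 probes above background, the 3 highest dye parts were those of the brightest probes. A mean processed signal above 262144 (18 on the log2 scale, a limit set after the values were seen) was reached by 47 probes, 3 of them members, namely Alas2, Hbb and Bnip3l. Of the 47 probes, 45 were brighter in Cy5, with a median dye part of 0.33 and a range of -0.058 to 1.47, so the members shared this with the other bright probes. The median LO part of the 47 probes was -0.035. In the next range of signal, log2 16 to 18, 156 probes had a median dye part of -0.018, and all 4 member probes there (Add2, Bpgm, Car2 and the bright probe of Slc4a1) were brighter in Cy3. Before dye normalization the dye part of the bright genes was larger, with 2.06 for Alas2 and 1.46 for Hbb in background-subtracted signals. The median was 0.33 for all probes above background.

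**Figure D4:**
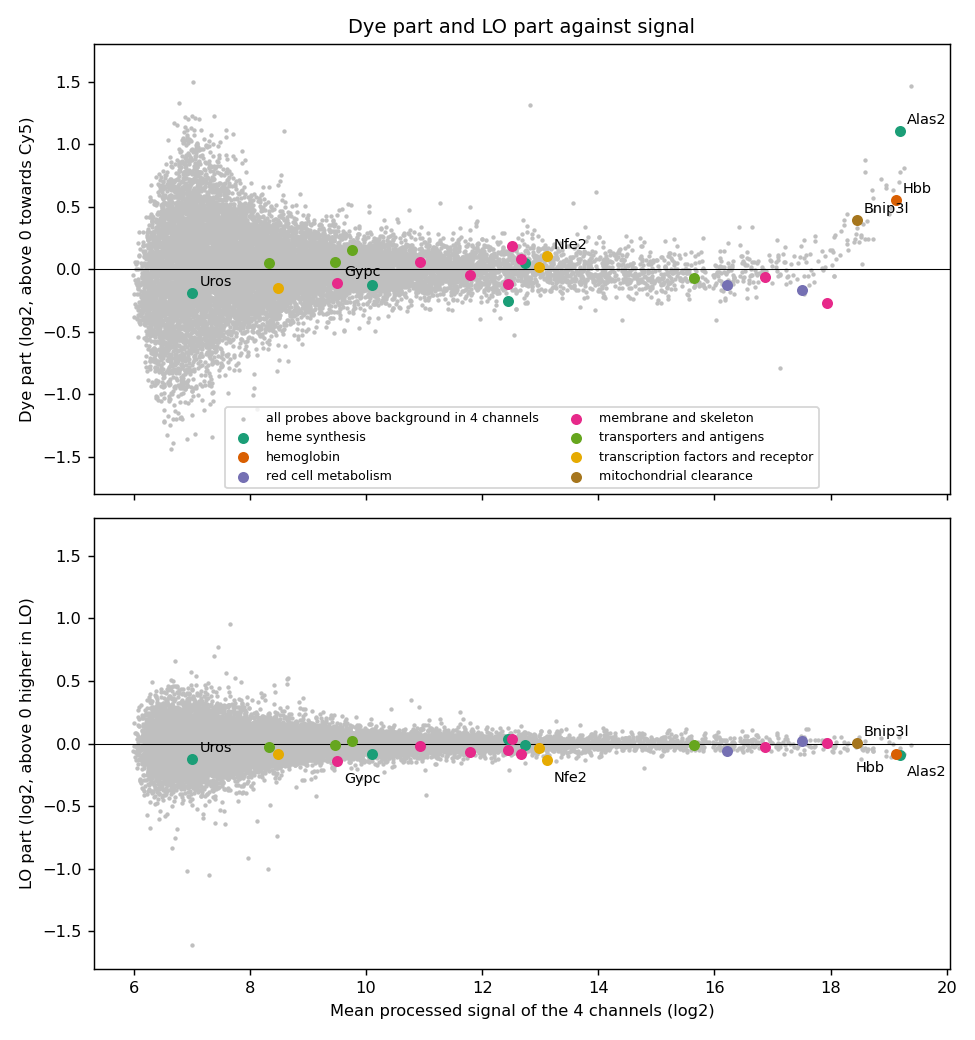
Dye part (upper panel) and LO part (lower panel), log2, against the mean processed signal of the 4 channels (log2, x axis) for all 15371 probes above background in all channels (grey) and the 24 member probes (colored by role). Alas2, Hbb and Bnip3l sit on an upward bend of the dye part above a log2 signal of 18. The LO parts of all 24 member probes lie between -0.14 and 0.040. The SD of the grey LO parts falls from 0.162 at log2 signals up to 8 to 0.039 at 14 to 16, and is 0.050 above 18.

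Other genes of the red cell program were read in the same way. Of 59 such genes, 32 were measured, and 32 of their 39 probes were above background. Of these, 23 were below 0 in LO part, the median was -0.014 and the range -0.198 to 0.144. No probe was called towards a pool, and 2 were called towards the same dye, those of Hba-a3 and Hbb-b1. Hba-a3, an alpha globin gene, gave 1151600 and 418999 (LO and control) on array 1 and 403286 and 1122600 on array 2, with an LO part of -0.0092 and a dye part of 1.47. Hbb-b1, another beta globin gene, gave 789189 and 470870 on array 1 and 450610 and 793150 on array 2, with an LO part of -0.035 and a dye part of 0.78. These 2 bright globin probes turned with the dye as Hbb did, whereas the dimmer probes of Hbe2, Hbg1 and Hbe1 above background had dye parts of -0.135, 0.036 and 0.095. Prdx2, the abundant peroxiredoxin of red cells, gave 463233 and 449240 on array 1 and 292008 and 396403 on array 2. Its LO part of -0.198 was the lowest of this list, with Feature Extraction p-values of 0.828 and 0.0340. The sign of its ratio turned with the dye. The LO part was 4.74 times the SD among the 1000 probes nearest in signal, which for a probe this bright reach much dimmer ones, as for Alas2.

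Markers of other blood cells were set beside the red cell genes. The summed signal of the 24 member probes was 2800201 in the LO pool and 2107129 in the control pool on array 1. On array 2 it was 1857062 and 2576285, so that its direction turned with the dye. Most of this sum was Alas2, Hbb and Bnip3l, and its direction is theirs. The next brightest members, the bright probe of Slc4a1, Car2, Add2 and Bpgm, turned the other way. For monocyte markers (6 of 10 genes measured, 6 of 8 probes above background) all 6 LO parts were below 0, with a median of -0.156. The count was 6 of 6 under both other background corrections as well. In background-subtracted signals, though, all 6 platelet probes and all 24 member probes were also below 0. With normexp and loess 3 of the 6 platelet probes were. The monocyte sum was 28655 and 33272 on array 1 and 30845 and 34573 on array 2, lower in the LO pool each time. Most of this sum was Lyz2. Without it, a sum added after seeing the data, the other 5 probes gave 2969 and 3533 on array 1 and 3568 and 3573 on array 2, and only Lyz2 and Csf1r were lower in the LO pool on both arrays. Neutrophil markers (9 of 12 genes, 7 of 9 probes above background) had a median LO part of 0.107, with sums of 35970 and 35424 on array 1 and 36581 and 33914 on array 2. T cell markers (10 of 12 genes, 9 of 10 probes above background) had a median of 0.067 in a range of -0.418 to 0.149, and sums of 42601 and 41360, then 44582 and 41672. In background-subtracted signals centred on the median, the neutrophil and T cell medians were below 0, at -0.025 and -0.043. There all probes above background together had a median of -0.074. Platelet markers (6 of 12 genes, 6 probes) had a median of -0.0021, and of the B cell markers only Cd79b and Blnk were measured above background. No measured marker was listed at 0, no probe of these lists was called towards a pool, and none of those above background in all 4 channels had an LO part over 1.5-fold. Their part in the small shift of the red cell genes was not tested.

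**Figure D5:**
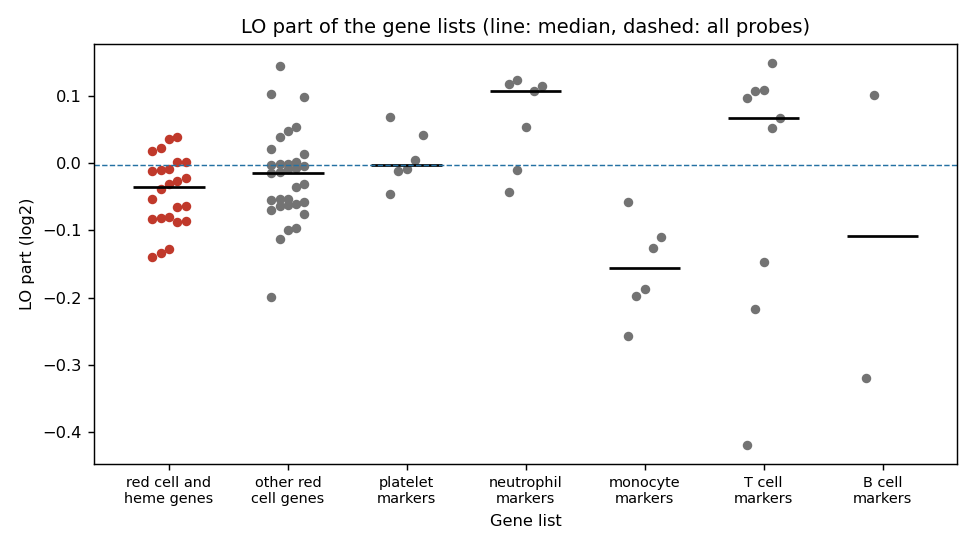
LO part (log2, y axis) of the probes above background in all 4 channels, for the red cell and heme synthesis genes (red), the other red cell genes and the markers of 5 other blood cell types (grey); black lines are medians and the dashed line is the median of all probes. The members lie between -0.14 and 0.040 with a median of -0.035, and all 6 monocyte probes lie below the dashed line.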

How the data were processed

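Spot intensities were extracted by the authors with Agilent Feature Extraction 11.0.1.1. The deposited intensity values are background-subtracted signals and processed signals after LOWESS dye normalization. The authors also deposited, for each feature, an unadjusted p-value of the error model, a log10 ratio (Cy5 over Cy3) and a log10 value table whose scale is not stated. The table equalled the log10 ratio of the processed signals within 0.001 on the log2 scale. The log ratio of the scanner output, which was used here, differed from the table by more than this in 6390 features on array 1 and 5726 on array 2, where the software had set it to 0. Control spots and the 338 features with an outlier flag on either array were left out, spots of a probe were averaged, and ratios were turned to LO over control by the stated dyes. A symbol was found for 10767 of 41009 probes through a RefSeq table of GRCr8, used for names and promoters only, since the array design is tied to rn4. The number of arrays, 2, limits the precision.

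Genes were described by role, in full for those above background in all 4 channels (in large roles the 4 brightest). The members and lists were chosen with earlier results of these data known, and the comparison with the 1000 probes of like signal was added after seeing the data. Simulated data with known changes were used to check the rule for calls. The planted changes were all larger than the LO part of any member, so the check does not cover differences of that size. Alternatives covered the p threshold, flags, dim probes, background correction, each array alone and 1 probe a gene. R 4.3.3 (limma 3.58.1) and Python 3.11.15 (pandas 2.3.3, numpy 2.4.6, scipy 1.17.1, matplotlib 3.10.9) were used.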

Additional observations from a re-analysis of the deposited data

How the results depend on the processing

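The count of member probes called towards a pool was 0 with p thresholds of 0.05 and 0.001, after Benjamini-Hochberg adjustment, with flagged features kept and with dim probes left out. On 1 array alone it was 1 to 3 (Alas2 without array 2, and Alas2, Cpox and Hbb without array 1). The probes above background beyond 1.5-fold then numbered 1 to 2. The shares of all probes on a single array are not given, so these counts are not read as a result about the members. A single array also cannot separate pool from dye, and no count towards the same dye can be had from it. With a p threshold of 0.05, 3 probes were called towards 1 dye, and under the other settings 1. The median LO part was -0.0561 to -0.0432 on single arrays, and between -0.041 and -0.031 with normexp and loess, the value table, flagged features kept, no filter on dim probes or 1 probe a gene. With background-subtracted signals centred on the median it was -0.155, with all 24 probes below 0 and a median of -0.074 over all probes above background. The median size of the dye part of the members was then 0.549, against 0.122 as deposited. Under this setting 7 of the 24 LO parts moved by more than the spread between the array ratios of the same probe. That spread contains the dye part, so a probe with a large dye part, such as Alas2, could hardly count as moved. The other probes are therefore not shown to be stable. The number of members below 0 was 18 of 24 as deposited and 20 of 24 with normexp and loess. No paired analysis was possible because both arrays carry the same 2 pools. With 1 pool a group, no difference can be set against the spread between rats, and dim probes such as Uros and Cpox lie close to the background.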

Other observations

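Among the markers of other blood cells, the monocyte probes were lower in the LO pool on average. Lyz2, the lysozyme of monocytes and other myeloid cells, gave 25686 and 29739 (LO and control) on array 1 and 27277 and 31001 on array 2, with an LO part of -0.198. Csf1r, the receptor that monocytes need for survival, gave 634 and 728 on array 1 and 651 and 735 on array 2, with an LO part of -0.187. In both genes the ratio had the same direction in both dye orientations, and the dye parts were -0.013 and -0.012. Cd68, a lysosomal protein of monocytes and macrophages, had an LO part of -0.126.

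S100a8, a calcium-binding protein of neutrophils, gave 11595 and 10521 (LO and control) on array 1 and 11728 and 10968 on array 2. Its LO part was 0.118. The partner S100a9 had an LO part of 0.054, and its ratio turned with the dye. Of the 7 neutrophil probes above background in all 4 channels, 2 were below 0, Np4 at -0.043 and Fcgr3a at -0.0099. Cd3g, a chain of the T cell receptor complex, gave 11130 and 10337 on array 1 and 10730 and 9943 on array 2, with an LO part of 0.108. Cd3d and Zap70, also of T cell receptor signaling, had LO parts of 0.052 and 0.097. Dimmer T cell probes went the other way on average, with LO parts of -0.418 for Cd247, a chain of the same receptor complex, -0.216 for Cd2 and -0.147 for Trat1, and in all 3 the ratio turned with the dye. Of the platelet genes, Pf4, Gp1bb and Gp9 had -0.0090, 0.069 and 0.042. These are differences between 1 pool and 1 pool, without a test.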
